A study of Boechera gunnisoniana with 7 samples.

Results

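Histones are the proteins that DNA is wrapped around in the nucleus, and the genes described here are those of *Arabidopsis* identifiers listed for the core histones H2A, H2B, H3 and H4, with their variants, and for the linker histone H1. Genes were taken from a list of identifiers of these families. Of the 41 listed genes, 35 had a value among the 21428 genes on the arrays. All 3 H1, 12 H2A, 9 H2B and 9 H3 genes were represented, but only 2 of the 8 H4 genes. The 6 H4 genes *AT1G07660*, *AT1G07820*, *AT3G45930*, *AT3G46320*, *AT5G59690* and *AT5G59970* were not analysed here. The 35 genes comprised 19 replication-dependent genes (4 H2A, 8 H2B, 5 H3.1 and 2 H4), 13 variant genes (2 H2A.X, 3 H2A.W, 3 H2A.Z, 1 H2B.8, 3 H3.3 and 1 CENH3) and the 3 linker genes.

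In a nucleosome, DNA winds around an octamer of H2A, H2B, H3 and H4, and H1 binds where the DNA enters and leaves it. Replication-dependent histones are made mainly in S phase, when newly copied DNA has to be packaged, whereas variants such as H3.3 and H2A.Z are also deposited outside S phase. In *Arabidopsis*, reporter lines have shown that linker histones are lost from the chromatin of the megaspore mother cell, and that the mature egg cell holds a reduced set of H3 proteins.

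RNA of untreated, greenhouse-grown *Boechera gunnisoniana*, a triploid plant that forms seeds without meiotic reduction but needs pollination for the endosperm, was hybridized to 7 *Arabidopsis* ATH1 GeneChips, with 1 array per gametophyte cell type (egg cell, central cell, synergid cells), 2 for the apomictic initial cell (AIC) and 2 for the sporophytic nucellus around it. The AIC is the cell that starts the gametophyte in place of a meiotic cell. All samples shared this genotype and were pools of cells from tissue sections cut out by laser-assisted microdissection, the gametophyte cells from emasculated flowers and the AIC and nucellus from young buds. Plant age was not stated, and a section of one cell can hold parts of its neighbours. The titles of the AIC and the nucellus arrays number them 1 and 2, and nothing in the sources used here says that they came from separate plants. In the following, the AIC and nucellus arrays are together called the young ovule. Values are the deposited log2 expression values, and each of them can be compared between arrays for the same gene, but not between genes. In such pools, fewer cells of a type cannot be told apart from less RNA per cell. The probes were designed for *Arabidopsis*, and the paper states that signal from another species depends largely on its sequence similarity to them. The part of probe mismatch in low values was not tested.

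Across all genes the arrays had medians between 4.0 and 4.16, and the central cell array had the smallest spread (SD 1.11, against 1.24 to 1.44 on the other arrays). Nucellus 2 stood apart from the other young ovule arrays. Its correlation with nucellus 1 across genes (Pearson's r = 0.853) was below that between AIC 1 and nucellus 1 (0.927). The mean of 2 synergid markers was 5.72 on the synergid array and 3.01 to 3.42 on the other arrays, with *MYB98* (*AT4G18770*) at 6.61 in the synergid cells. The 5 central cell markers averaged 4.55, 4.92 and 4.34 in the egg, central and synergid cells and 3.75 to 4.10 in the young ovule. Neither of the 2 egg cell markers with a value lay above the 75th percentile of genes on any array, including the egg cell array. None of the 3 meiocyte markers lay above it in the AIC. The mean of these 3 markers was 4.83 in AIC 1 and 3.97 in AIC 2, against 3.69 to 4.03 on the other arrays. The 5 nucellus markers averaged 4.44 in the egg cell and 3.63 to 4.24 on the other arrays. In the egg cell *STK* (*AT4G09960*) measured 5.86, against 4.92 and 3.39 in the nucellus, and *ATML1* 6.24, against 5.94 and 5.85. *ATML1* was higher still in the central cell (6.3) and AIC 2 (6.58). *WUS* measured 3.2 in the egg cell (nucellus 3.31 and 3.3), *SPL/NZZ* 3.69 (3.94 and 3.88) and *BEL1* 3.22 (3.09 and 3.27). Across genes the egg cell array correlated best with AIC 2 (r = 0.879). The part of neighbouring tissue in the egg cell values was not tested.

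To describe where the histone genes ranked, each array was divided at the 75th percentile of its own genes, which lay between 4.99 and 5.08. This line is a rank and not a call of presence. By construction, 25% of all genes lie above this line. Of the 35 histone genes, 12, 15 and 14 lay above it in the egg, central and synergid cells, 19 and 20 in the AIC, and 23 and 14 in nucellus 1 and nucellus 2. The number differed most between arrays for the replication-dependent genes, with 5, 6 and 5 of 19 above the line in the egg, central and synergid cells, 10 and 10 in the AIC, and 13 and 6 in the nucellus. For the variant genes the numbers were 6, 7 and 7 of 13 in the gametophyte cells, 7 and 8 in the AIC, and 8 and 7 in the nucellus. In all, 11 of 35 histone genes lay above the line on every array (12.4% of all genes) and 10 on no array (57.9%).

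**Figure D1:**
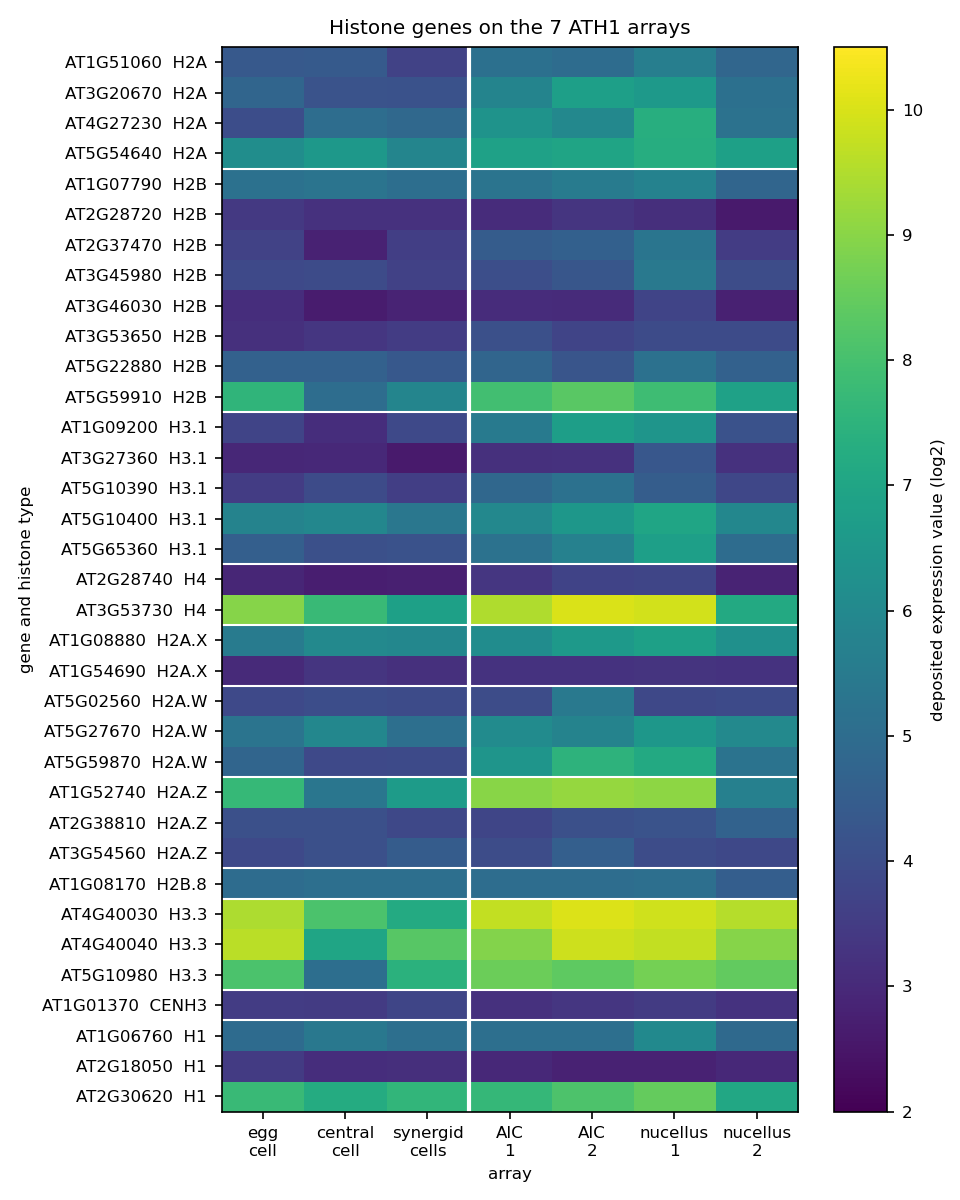
Deposited log2 expression value (colour) of each of the 35 histone genes (rows, grouped by histone type) on each of the 7 arrays (columns, gametophyte cells left of the white line, AIC and nucellus right of it). H2A genes are darker left of the line, as are most H3.1 genes, and the H3.3 genes are at their darkest in the central or synergid cells.

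Mature gametophyte cells were first compared with the young ovule. The values of 13 of the 35 histone genes were lower in all 3 gametophyte arrays than in any of the 4 young ovule arrays, against 3.97% of all genes. Only 1 histone gene, the H1 gene *AT2G18050*, was higher in all 3, against 7% of all genes. The 13 genes were 9 of 19 replication-dependent genes (all 4 H2A, 3 of 5 H3.1 and 2 of 8 H2B genes) and 4 of 13 variant genes (2 of 3 H3.3, 1 of 3 H2A.W and 1 of 2 H2A.X genes). The difference of the means was below 0 for 30 of 35 histone genes (85.7%, against 43.1% of all genes) and below -1 for 12 of 35 (34.3%, against 4.8%). Its median was -0.81 over the replication-dependent, -0.63 over the variant and -0.13 over the linker genes, and 0.05 over all genes. Without nucellus 2 these class medians were -0.98, -0.77 and -0.42. The linker median had no settled sign, with 0.16 without nucellus 1 and 0.28 with quantile normalization, under which the variant median was -0.35.

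None of these differences passed limma after Benjamini-Hochberg adjustment over all genes. The test called 0 of 21428 genes at an adjusted p under 0.05 (0%), while 4240 genes (19.8%) and 11 of the 35 histone genes, 10 of them lower in the gametophyte cells, had an unadjusted p under 0.05. The smallest adjusted p among the histone genes was 0.137. Since the gametophyte cell types had 1 array each, the standard errors below come from the AIC and nucellus pairs alone and leave out the spread among gametophyte cell types.

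**Figure D2:**
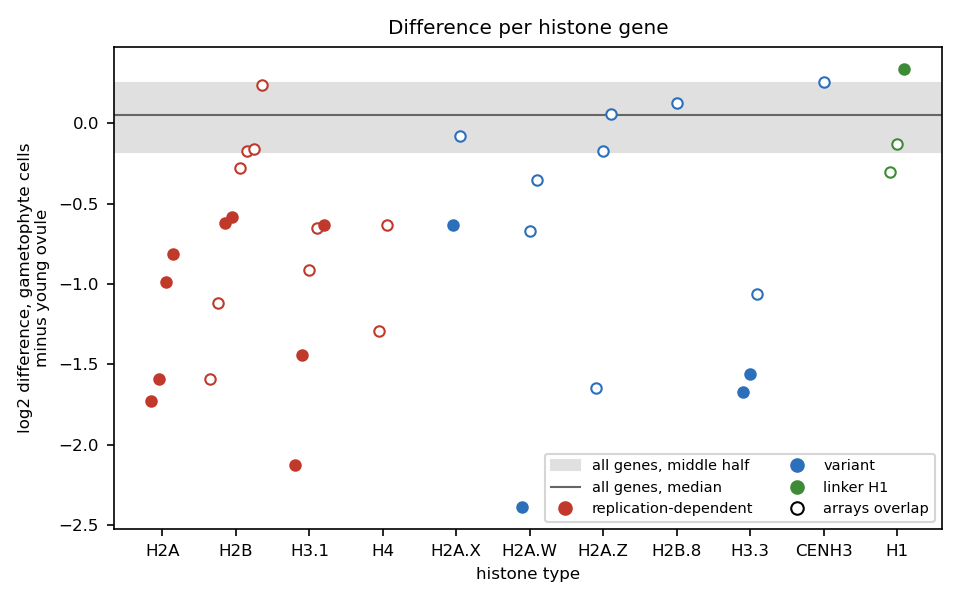
Difference of the mean log2 value (y axis), gametophyte cells minus young ovule, for each of the 35 histone genes (points) by histone type (x axis). Filled points mark genes whose 3 gametophyte and 4 young ovule values do not overlap, the line and the grey band mark the median (0.05) and the middle of all genes between the quartiles (-0.18 to 0.25), and 30 of 35 points lie below 0.

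The H3.1 genes encode the replication-dependent form of H3, which chromatin assembly factor 1 places on newly copied DNA. *AT1G09200* measured 3.74, 3.1 and 3.87 in the egg, central and synergid cells, against 5.47 and 6.76 in the AIC and 6.42 and 4.14 in the nucellus. All gametophyte values lay below all young ovule values, with nucellus 2 nearest to them. The difference was -2.13 ± 0.78 (SE), a 4.38-fold lower value in the gametophyte cells (limma adjusted p = 0.284). *AT5G65360* measured 4.57, 4.07 and 4.14 in the egg, central and synergid cells, against 5.21 and 5.75 in the AIC and 6.81 and 5.02 in the nucellus. Here, too, the groups did not overlap, and the difference was -1.44 ± 0.56 (limma adjusted p = 0.301).

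The remaining H3.1 genes showed smaller differences. *AT5G10400* measured 5.80, 5.94 and 5.37 in the egg, central and synergid cells, against 5.97 and 6.50 in the AIC and 7.01 and 5.94 in the nucellus, so that the central cell and nucellus 2 had the same value. *AT5G10390* measured 3.50, 3.93 and 3.58 in the egg, central and synergid cells, against 4.83 and 5.18 in the AIC and 4.51 and 3.82 in the nucellus, and the central cell overlapped with nucellus 2. *AT3G27360* stayed below the 75th percentile on all arrays and lay between 2.60 and 2.99 in the gametophyte cells, against 3.17 to 4.32 in the young ovule (difference -0.63 ± 0.34, limma adjusted p = 0.408, and -0.35 without nucellus 1). Without nucellus 2, all 5 H3.1 genes were lower in all gametophyte arrays than in any of the remaining young ovule arrays.

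**Figure D3:**
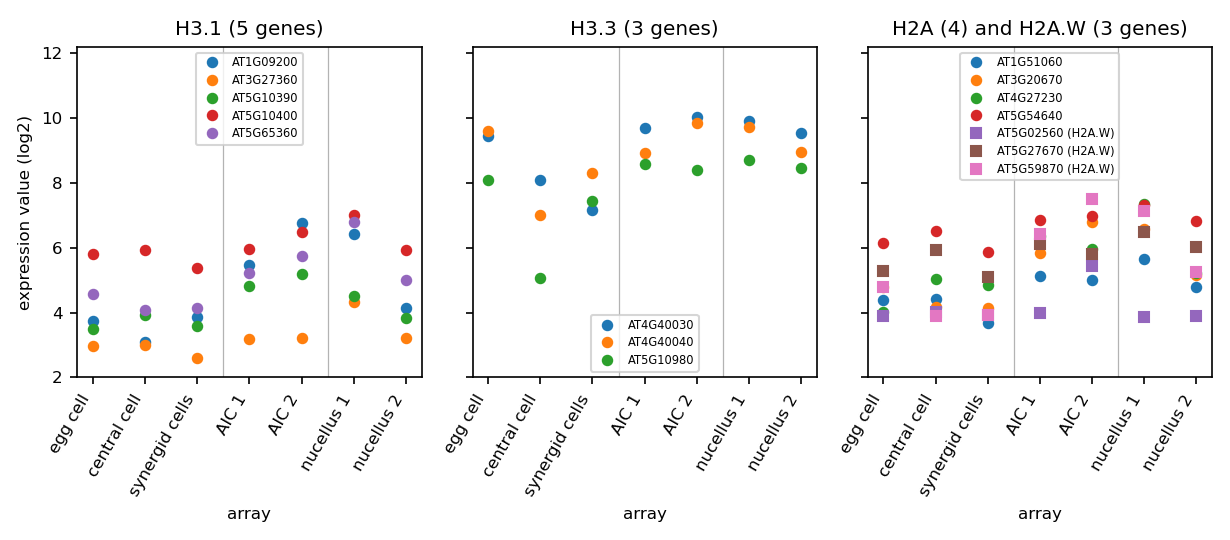
Deposited log2 values (y axis) of the H3.1 genes (left), the H3.3 genes (middle), and the H2A and H2A.W genes (right, H2A.W as squares) on the 7 arrays (x axis), 1 point per gene and array. The 4 H2A genes lie lower in all gametophyte cells than in the young ovule, whereas the H3.3 genes in the egg cell lie between 8.10 and 9.61, near their young ovule values.

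H2A was the only type with more than 1 gene in which every gene was lower without overlap. *AT5G54640* measured 6.16, 6.52 and 5.87 in the egg, central and synergid cells, against 6.86 and 6.98 in the AIC and 7.31 and 6.83 in the nucellus. Its difference was -0.81 ± 0.17 (limma adjusted p = 0.17), and -0.40 with quantile normalization. *AT4G27230* measured 4.01, 5.03 and 4.86 in the egg, central and synergid cells, against 6.36 and 5.96 in the AIC and 7.34 and 5.22 in the nucellus. For this gene the distance between the groups was small at its narrowest point, between the central cell and nucellus 2, and the difference was -1.59 ± 0.65 (limma adjusted p = 0.317).

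The other H2A genes gave the same picture of groups that did not overlap. *AT1G51060* measured 4.39, 4.42 and 3.68 in the egg, central and synergid cells, against 5.14 and 5.02 in the AIC and 5.65 and 4.80 in the nucellus (difference -0.99 ± 0.27, limma adjusted p = 0.213). *AT3G20670* measured 4.78, 4.16 and 4.13 in the egg, central and synergid cells, against 5.83 and 6.79 in the AIC and 6.59 and 5.15 in the nucellus (difference -1.73 ± 0.52, limma adjusted p = 0.23). Both genes were highest in a young ovule array, *AT1G51060* in nucellus 1 and *AT3G20670* in AIC 2.

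H2B pairs with H2A in the nucleosome, but its genes varied more among themselves. *AT5G59910* measured 7.56, 5.04 and 5.87 in the egg, central and synergid cells, against 7.93 and 8.33 in the AIC and 7.86 and 6.86 in the nucellus, so the egg cell lay within the young ovule range and the central and synergid cells below it. *AT1G07790* measured 5.16, 5.28 and 5.07 in the egg, central and synergid cells, against 5.28 and 5.53 in the AIC and 5.77 and 4.78 in the nucellus, with little difference between the groups. *AT2G37470* measured 3.69, 2.82 and 3.58 in the egg, central and synergid cells, against 4.49 and 4.62 in the AIC and 5.29 and 3.52 in the nucellus, and only nucellus 2 overlapped with the gametophyte cells.

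The 2 H2B genes without overlap both had modest differences. *AT3G45980* measured 3.89, 3.94 and 3.63 in the egg, central and synergid cells, against 4.04 and 4.28 in the AIC and 5.43 and 3.99 in the nucellus, and *AT3G53650* lay between 3.17 and 3.50 in the gametophyte cells, against 3.74 to 4.06 in the young ovule. *AT5G22880* measured 4.65, 4.65 and 4.34 in the egg, central and synergid cells, against 4.76 and 4.25 in the AIC and 5.17 and 4.65 in the nucellus, and its groups overlapped. The 2 H2B genes *AT2G28720* and *AT3G46030* stayed at or below 3.73 on all arrays. *AT2G28720* was the only replication-dependent gene with a higher mean in the gametophyte cells than in the young ovule. The means were 3.28 ± 0.11 (SD, n = 3, 1 array per cell type) and 3.04 ± 0.29 (SD, n = 4). Nucellus 2 (2.62) lay lowest, against 3.07 to 3.3 on the other young ovule arrays and 3.21 to 3.41 in the gametophyte cells.

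H4 was represented by 2 genes. *AT3G53730* measured 8.96, 7.77 and 6.83 in the egg, central and synergid cells, against 9.50 and 10.01 in the AIC and 9.91 and 7.15 in the nucellus. Nucellus 2 thus lay among the gametophyte values, while the 3 other young ovule arrays lay above all of them. *AT2G28740* was between 2.70 and 2.90 in the gametophyte cells, against 2.85 to 3.76 in the young ovule, and again only nucellus 2 overlapped.

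H3.3 is deposited outside S phase, largely in transcribed genes, and its 3 genes were above the 75th percentile on every array. *AT5G10980* measured 8.10, 5.07 and 7.43 in the egg, central and synergid cells, against 8.59 and 8.39 in the AIC and 8.71 and 8.46 in the nucellus. The 4 young ovule arrays lay close together and above all gametophyte cells, and the difference was -1.67 ± 0.12 (limma adjusted p = 0.137). *AT4G40030* measured 9.46, 8.08 and 7.18 in the egg, central and synergid cells, against 9.71 and 10.04 in the AIC and 9.90 and 9.56 in the nucellus (difference -1.56 ± 0.16, limma adjusted p = 0.144). With quantile normalization this difference was -0.76, and without the synergid cell array -1.03. That of *AT5G10980* was -0.77 without the central cell array. *AT4G40040* measured 9.61, 7.01 and 8.30 in the egg, central and synergid cells, against 8.92 and 9.85 in the AIC and 9.72 and 8.95 in the nucellus, so that the egg cell lay within the young ovule range.

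Among the H2A variants, the H2A.W gene *AT5G59870* had the largest difference of all 35 genes. H2A.W is the variant of heterochromatin. *AT5G59870* measured 4.78, 3.88 and 3.92 in the egg, central and synergid cells, against 6.42 and 7.51 in the AIC and 7.15 and 5.25 in the nucellus, a 5.24-fold lower value in the gametophyte cells (difference -2.39 ± 0.66, limma adjusted p = 0.215). *AT5G27670* measured 5.27, 5.94 and 5.11 in the egg, central and synergid cells, against 6.11 and 5.80 in the AIC and 6.50 and 6.01 in the nucellus, and the central cell overlapped with AIC 2. *AT5G02560* measured 3.88, 4.02 and 3.94 in the egg, central and synergid cells, against 3.99 and 5.44 in the AIC and 3.85 and 3.91 in the nucellus. A single array, AIC 2, therefore carried its higher AIC mean.

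H2A.Z marks promoters and the bodies of responsive genes. *AT1G52740* measured 7.71, 5.33 and 6.67 in the egg, central and synergid cells, against 8.98 and 9.14 in the AIC and 9.07 and 5.69 in the nucellus. The 3 young ovule arrays other than nucellus 2 lay close together, and the gap to nucellus 2 (-3.38 from nucellus 1) was the largest within a replicate pair among the histone genes. The other H2A.Z genes, *AT2G38810* and *AT3G54560*, stayed below the 75th percentile, between 3.83 and 4.49 in the gametophyte cells and between 3.76 and 4.67 in the young ovule.

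H2A.X is phosphorylated where DNA is broken. *AT1G08880* measured 5.55, 6.0 and 5.95 in the egg, central and synergid cells, against 6.14 and 6.58 in the AIC and 6.84 and 6.28 in the nucellus, and the groups did not overlap. The other H2A.X gene, *AT1G54690*, lay between 3.0 and 3.31 on all arrays. *AT1G08170*, which encodes H2B.8, a variant known from the condensed chromatin of sperm, measured 4.99, 5.10 and 5.09 in the egg, central and synergid cells, against 5.03 and 5.03 in the AIC and 5.09 and 4.55 in the nucellus. Apart from the lower nucellus 2 these values were nearly the same. CENH3 (*AT1G01370*), the H3 of centromeres, lay between 3.20 and 3.76 on all arrays.

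The linker genes differed little. *AT2G30620* measured 7.77, 7.23 and 7.61 in the egg, central and synergid cells, against 7.67 and 8.12 in the AIC and 8.48 and 7.09 in the nucellus. *AT1G06760* measured 4.98, 5.40 and 5.11 in the egg, central and synergid cells, against 5.11 and 5.11 in the AIC and 6.05 and 4.89 in the nucellus. In both genes the 2 nucellus arrays were further apart than the groups. *AT2G18050*, the H1 gene known to respond to drought in *Arabidopsis*, lay between 3.1 and 3.47 in the gametophyte cells, against 2.81 to 2.99 in the young ovule, all below the 75th percentile, and its higher call was lost with quantile normalization.

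Several measures moved with this comparison. The mean of the 5 central cell markers was higher on each gametophyte array than on any young ovule array, as given above. The hybridization controls, which are added to each sample in known amounts, averaged 10.67, 11.43 and 12.49 on the egg, central and synergid arrays, against 9.25 to 10.33 on the young ovule arrays (18 features). The actin control measured 2.88, 3.1 and 3.27 higher with its 3' than with its 5' probes on the gametophyte arrays, against 2.11 to 2.61 on the young ovule arrays. The same measure overlapped between the groups for GAPDH (2.75, 3.52 and 2.58, against 2.23 to 2.84), and for ubiquitin it was 1.82, -0.16 and 1.23, against 1.58 to 1.83. The part of these measures in the histone differences was not tested. Among the 5357 genes whose mean over the 7 arrays lay above the 75th percentile of such means, 9.65% were lower in the gametophyte cells without overlap and 2.74% higher, with a median difference of -0.20. The 17 histone genes in this set had 8 lower, 0 higher and a median of -1.29. The mean that defines this set includes the young ovule arrays. A gene can thus enter it through high values there, which favours genes lower in the gametophyte cells.

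Leaving out nucellus 2 raised the number of histone genes lower in all gametophyte arrays to 20 of 35, against 6.04% of all genes. The 7 added genes were the H3.1 genes *AT5G10400* and *AT5G10390*, the H2B genes *AT5G59910* and *AT2G37470*, both H4 genes and the H2A.Z gene *AT1G52740*. With each other array left out in turn the number was between 13 and 17, against 4.86% to 6.22% of all genes without another young ovule array and 7.33% to 9.5% without a gametophyte array. Near-identical copies limit all of these values. In *Arabidopsis* the H3.1 genes encode one and the same protein, as do the H3.3 and the H4 genes, so a value may include signal of a copy, and cross-hybridization was not tested.

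Each gametophyte cell type was also set against the 4 young ovule arrays by itself, a comparison added after the data had been seen. The egg cell was below all 4 arrays in 17 of 35 histone genes (26.2% of all genes), the central cell in 19 (17.6%) and the synergid cells in 21 (21.6%). In each cell type 3 histone genes were above all 4 arrays, against 22.1% of all genes in the egg cell, 36.2% in the central cell and 31.2% in the synergid cells. All 4 H2A genes were below in each of the 3 cell types. For H3.1, 5 of 5 genes were below in the egg cell, 3 in the central cell and 5 in the synergid cells, and for H3.3 these numbers were 2, 3 and 3 of 3. The sizes differed by type. The median difference of the H3.1 genes from the young ovule was -1.09 in the egg cell, -0.65 in the central cell and -1.0 in the synergid cells, whereas that of the H3.3 genes was -0.34 in the egg cell, -2.35 in the central cell and -1.11 in the synergid cells. The central cell array had the smallest spread across genes. By rank within the array, *AT4G40030* was at percentile 99.5 in the central cell, against 99.5 to 99.7 in the young ovule. *AT4G40040* was at percentile 97.9 against 98.8 to 99.6, and *AT5G10980* at 76.2 against 98.1 to 98.5.

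Within the mature gametophyte, the egg, central and synergid cells were compared with each other to see which histone genes differ between the cell types. With 1 array each, limma had to assume that a cell type varies like the AIC and nucellus pairs. It called 0 of 21428 genes in each of the 3 comparisons (0%), and the number of genes with an unadjusted p under 0.05 was 3663 for the egg cell (17.1%), 3568 for the central cell (16.7%) and 2726 for the synergid cells (12.7%). Among the histone genes these were 4 for the egg cell, 3 for the central cell and 2 for the synergid cells.

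The egg cell was higher than both other cell types in 15 of 35 histone genes (26.1% of all genes) and lower in 9 (43.9%). All 3 H3.3 genes were among the higher ones, by 1.95 ± 0.59 for *AT4G40040* (limma adjusted p = 0.275), 1.85 ± 0.20 for *AT5G10980* (0.179) and 1.83 ± 0.26 for *AT4G40030* (0.194). The H2B gene *AT5G59910* was 2.11 ± 0.53 higher (limma adjusted p = 0.24), the H2A.Z gene *AT1G52740* 1.71 ± 1.62 and the H4 gene *AT3G53730* 1.66 ± 1.35. For both of these genes the standard error was about as large as the difference. With quantile normalization the differences were smaller for *AT4G40040* (1.23), *AT4G40030* (0.92) and *AT3G53730* (0.70). By rank, *AT3G53730* was at percentile 99.0 in the egg cell and 99.3 in the central cell, and *AT4G40030* at 99.5 in both. In rank the egg cell was above the central cell for *AT4G40040* (99.6 and 97.9) and *AT5G10980* (97.8 and 76.2). The same held for *AT5G59910* (96.4 and 75.4) and *AT1G52740* (96.8 and 81.7). In the opposite direction, the H2A gene *AT4G27230* differed most, by -0.94 ± 1.04.

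In the central cell, 13 of 35 histone genes were lower than in both other cell types (24.7% of all genes) and 15 higher (40.2%). The H3.3 gene *AT5G10980* differed by -2.69 ± 0.20, a 6.45-fold lower value than in the egg and synergid cells (limma adjusted p = 0.187), and *AT4G40040* by -1.94 ± 0.59 (0.28). *AT5G59910* (-1.68 ± 0.53) and *AT1G52740* (-1.86 ± 1.62) were lower as well. Of the higher genes, the H2A.W gene *AT5G27670* differed by 0.76 ± 0.30 (limma adjusted p = 0.364). The central cell array also had the smallest spread of all genes and the ubiquitin control at -0.16 for 3' minus 5' probes, against 1.82 and 1.23 on the egg and synergid arrays, and the part of the ubiquitin control in these differences was not tested. With quantile normalization, which gives all arrays the same spread, *AT5G10980* differed by -2.74, *AT4G40040* by -1.04 and *AT5G27670* by 1.15.

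The synergid cells were lower than both other cell types in 12 of 35 histone genes (27.4% of all genes) and higher in 4 (31%). The H3.3 gene *AT4G40030* differed by -1.59 ± 0.26 (limma adjusted p = 0.3) and the H4 gene *AT3G53730* by -1.54 ± 1.35. The lowest H3.3 value thus came from the central cell for *AT5G10980* and *AT4G40040*, and from the synergid cells for *AT4G40030*. Among the replication-dependent genes 9 of 19 were lowest in the synergid cells of the gametophyte, for example the H2A gene *AT1G51060* (-0.72 ± 0.43).

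The AIC was compared with the nucellus to see whether histone genes differ between the cell that enters apomixis and the tissue around it. Both AIC arrays were above both nucellus arrays in 3 of 35 histone genes (12.7% of all genes) and below them in 1 (14.3%). The 3 higher genes were *AT5G10390* (H3.1), at 5.01 ± 0.24 in the AIC and 4.16 ± 0.49 in the nucellus (SD, n = 2 each), *AT5G02560* (H2A.W), at 4.72 ± 1.02 in the AIC and 3.88 ± 0.04 in the nucellus, and *AT5G59910* (H2B), at 8.13 ± 0.28 in the AIC and 7.36 ± 0.71 in the nucellus. Their differences were 0.84 ± 0.32, 0.83 ± 0.57 and 0.77 ± 0.43 (SE). Each of them rested in part on 1 array. The difference of *AT5G10390* was 0.49 without nucellus 2, and that of *AT5G59910* was 0.27 without nucellus 2 and 1.27 without nucellus 1. For *AT5G02560* it was 0.11 without AIC 2 and 1.55 without AIC 1. The gene below was the H2A.Z gene *AT2G38810*, with 3.91 ± 0.22 in the AIC and 4.41 ± 0.36 in the nucellus, a difference of -0.50 that was -0.25 without nucellus 2 and -0.76 without nucellus 1. All 4 had a limma adjusted p of 0.938.

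In this comparison limma called 0 of 21428 genes (0%), and 819 (3.82%) had an unadjusted p under 0.05, with 0 of the 35 histone genes among them. The difference of the means was below 0 in 17 of 35 histone genes (50.9% of all genes) and below -1 in 0 (2.92%). Its median was -0.05 over the replication-dependent, 0.05 over the variant and 0.01 over the linker genes, and -0.005 over all genes. These figures rest on 2 nucellus arrays that differed from each other. Without nucellus 1 both AIC arrays were above the remaining nucellus array in 24 of 35 histone genes (28.9% of all genes), and without nucellus 2 they were below the remaining one in 21 (29.8%).

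**Figure D4:**
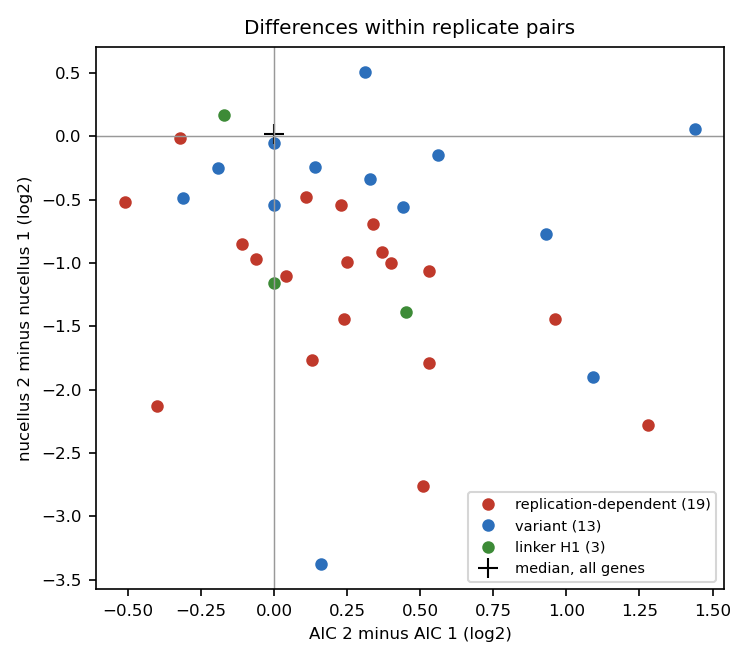
Difference between the 2 nucellus arrays (y axis, log2, nucellus 2 minus nucellus 1) and between the 2 AIC arrays (x axis, log2, AIC 2 minus AIC 1) for the 35 histone genes (points, coloured by class), with the median of all genes as a cross. Nearly all histone genes lie below 0 on the y axis, with a median of -0.85 against 0.02 for all genes.

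The replicate pairs are therefore described by themselves. Nucellus 2 was below nucellus 1 in 32 of 35 histone genes (91.4%), against 42.8% of all genes. For the 5357 genes with the highest means, which hold only 17 of the 35 histone genes, the share was 53.4%. Nucellus 2 was the lower one for all 19 replication-dependent genes, for 11 of 13 variant genes and for 2 of 3 linker genes. The exceptions were the H2A.W gene *AT5G02560*, the H2A.Z gene *AT2G38810* and the H1 gene *AT2G18050*. In 13 histone genes the distance exceeded 1, against 6.24% of all genes, and its median was -1.0 over the replication-dependent and -0.34 over the variant genes. The 3 H3.3 genes differed by -0.25, -0.34 and -0.77.

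Nucellus 2 was also below the other 3 young ovule arrays in 23 of 35 histone genes (22.2% of all genes) and above them in 1 (26.8%). It was below them for 16 of 19 replication-dependent and 5 of 13 variant genes. Of the 2 AIC arrays, AIC 2 was the higher one in 24 of 35 histone genes (68.6%, against 48% of all genes). All 5 H3.1 genes were among them, and the median difference of the 35 genes was 0.24. For the 5357 genes with the highest means, which hold only 17 of the 35 histone genes, the share was 45.2%. Over all 7 arrays, 17 of 35 histone genes were highest in nucellus 1 (11% of all genes) and 11 in AIC 2 (11.9%), while 10 were lowest in the central cell (11.3%) and 9 in the synergid cells (13.8%).

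Genes of DNA replication and of histone transfer were examined beside the histone genes. Of 12 replication genes with a value (13 listed), 0 were lower in the gametophyte cells without overlap (3.97% of all genes) and 1 was higher (7%). The higher one was the ribonucleotide reductase gene *AT2G21790* (0.80 ± 0.08, limma adjusted p = 0.144), and the median difference of the 12 genes was 0.09. The proliferating cell nuclear antigen gene *PCNA2* (*AT2G29570*), which encodes the sliding clamp of DNA polymerase, measured 8.43, 4.53 and 3.42 in the egg, central and synergid cells, against 7.77 and 8.75 in the AIC and 7.36 and 2.98 in the nucellus. Its paralogue *PCNA1* (*AT1G07370*), also one of the 13 listed genes but singled out here after its values had been seen, measured 4.42, 4.34 and 4.59 in the egg, central and synergid cells, against 5.35 and 5.13 in the AIC and 5.35 and 4.14 in the nucellus. In both genes nucellus 2 had the lowest value of all arrays.

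In the AIC as compared to the nucellus, 6 of the 12 replication genes were higher without overlap (12.7% of all genes) and 0 lower (14.3%). Their median difference was 0.39. The differences were 3.1 ± 1.76 for *PCNA2*, 1.62 ± 0.68 for *AT5G46280*, a subunit of the replicative helicase, and 0.64 ± 0.41 for *AT5G67100*, the catalytic subunit of DNA polymerase alpha (limma adjusted p = 0.938 for each). Nucellus 2 was below the other young ovule arrays in 8 of these 12 genes (22.2% of all genes). With nucellus 1 alone as the nucellus, both AIC arrays were above it in 7 genes (31.6% of all genes) and below it in 3 (29.8%). The median difference was then 0.21, and the difference was 0.90 for *PCNA2*, 0.88 for *AT5G46280* and 0.70 for *AT5G67100*. AIC 2 carried most of the difference of *AT5G67100*, with 3.44 and 4.47 in AIC 1 and AIC 2, against 3.26 and 3.37 in the nucellus. Without nucellus 2, 3 replication genes were lower in the gametophyte cells without overlap, against 6.04% of all genes.

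Histone chaperones bind free histones and hand them to DNA or to assembly complexes. Of 21 genes for chaperones and deposition factors with a value (22 listed), 3 were higher in all gametophyte arrays than in the young ovule (7% of all genes) and 0 lower (3.97%). The median difference of the 21 genes was 0.01. The 3 higher genes were *AT1G18800*, which encodes a relative of nucleosome assembly proteins (1.36 ± 0.27, limma adjusted p = 0.168), *AT1G08600*, the ATRX gene involved in H3.3 deposition (0.86 ± 0.18, 0.173) and *AT1G65470*, a subunit of chromatin assembly factor 1 (0.44 ± 0.09, 0.174). Between the AIC and the nucellus, 3 were higher (12.7% of all genes) and 3 lower (14.3%) without overlap. Against nucellus 1 alone 7 were higher (31.6% of all genes) and 6 lower (29.8%). The largest difference was that of *AT3G33520*, a subunit of the complex that deposits H2A.Z, with 1.56 ± 0.14 (limma adjusted p = 0.938, and 1.52 against nucellus 1 alone), while *AT1G74560*, another relative of nucleosome assembly proteins (-0.53 ± 0.21), and *AT1G66740*, a chaperone of H3 and H4 (-0.50 ± 0.17), were lower in the AIC.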

How the data were processed

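Log2 expression values, 1 per *Arabidopsis* gene and array, were taken as deposited by the authors, who grouped the ATH1 probes by gene with BrainArray TAIRG version 14 definitions. The methods name RMA for the array values of heatmaps, do not spell out the normalization of the deposited table, and no further normalization was applied. The table holds 21492 features, of which 64 controls were left out of counts and tests, and 0 missing values. Genes were compared in R 4.3.3 by the functions lmFit and eBayes of limma 3.58.1, fitting a mean per group to all 7 arrays, and Benjamini-Hochberg adjusted p values over 21428 genes were called under 0.05. Only the replicated groups give residual degrees of freedom (2 in all, next to a prior of 1.28 with variance 0.0255), and their spread was used for the unreplicated cell types, too. P values measure only the spread between these arrays, which may be technical, and the number of arrays limits the precision. Groups were said not to overlap when every value of one lay above every value of the other. Shares of all genes were computed in the same way.

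The table holds no gene names. Histone families come from the list of identifiers, and types within families as well as the marker, chaperone and replication lists from general knowledge of *Arabidopsis*. H2B genes other than *AT1G08170* and all H4 genes were counted as replication-dependent by family. Members and lists were chosen with earlier results of these data known. Values on all arrays were given for genes above the 75th percentile of at least 1 array, and differences for at most 10 genes per comparison and 3 per list, the largest without overlap. Alternatives were quantile normalization, percentile ranks, other percentiles (70 and 80) and a fixed line at 5, a filter on low values, other fits, a replicate block, and each array left out. Counts, medians and figures were made with numpy 2.4.6, pandas 2.3.3 and matplotlib 3.10.9 in Python 3.11.15.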

Additional observations from a re-analysis of the deposited data

How the results depend on the processing

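limma called 0 of 21428 genes in all 5 comparisons and 0 under every alternative run (quantile normalization, a trended prior, a restriction to genes above the 75th percentile on at least 2 arrays, and omission of each young ovule array). A fit on the 4 young ovule arrays alone equals the fit on all arrays, since single arrays add no residual degrees of freedom. With the replicate number as a block, AIC minus nucellus likewise had 0 calls, with 869 at an unadjusted p under 0.05. The labels do not say that the numbers pair the arrays, and across genes the differences within the 2 pairs were hardly correlated (r = 0.0314). The number of histone genes lower in the gametophyte cells without overlap was 13 to 20 with one AIC or nucellus array left out, and 20 came from leaving out nucellus 2. The number of higher ones was 0 with quantile normalization or percentile ranks, 2 without the egg cell array (19.2% of all genes), 2 without the central cell array (10.6%), and 1 to 2 with one AIC or nucellus array left out (8.4% to 9.72%). Between the AIC and the nucellus, leaving out one array gave 1 to 21 lower histone genes (29.8% to 33.4% of all genes) and 4 to 24 higher ones (25.3% to 32.2%). It moved the median of the replication-dependent genes from -0.39 to 0.56 and that of the linker genes from -0.59 to 0.22. Among genes whose mean lay above the 75th percentile, a set chosen after seeing the data, the median difference of gametophyte cells minus young ovule was -1.37 for replication-dependent and -1.56 for variant genes. High young ovule values help a gene into that set, which favours such negative differences. The differences of the named genes from the young ovule and between AIC and nucellus kept their direction with quantile normalization and with each array left out (the gametophyte arrays as an alternative chosen after seeing the data). Those within the gametophyte kept it with quantile normalization, while leaving out a young ovule array cannot move them. The counts above the 75th percentile moved by less than 1.5 times with the other lines. The cause of the dependence on single arrays was not tested. The 1 to 2 arrays per group limit the precision.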
